A study of Ipomoea batatas with 18 samples.

Results

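Unigenes listed in the low-starch sweetpotato cultivar only were described here. A unigene was taken when it had an FPKM of at least 1 in all 9 low-starch libraries and exactly 0 in all 9 high-starch libraries. FPKM corrects the fragment number of a transcript for its length and for the size of the library. The rule found 107 of the 46840 unigenes, which is 0.228%. They were chosen by these FPKM values, so their levels and their difference between the cultivars are a description and were not tested. The 18 libraries came from roots of Ipomoea batatas, with 3 libraries per cultivar and age. The low-starch cultivar was 15-94 and the high-starch cultivar was Chuanshu 218. Each was sampled at 30, 65 and 100 days of age from greenhouse pots under natural light. Both cultivars stand for 1 genotype each, so starch content and cultivar cannot be told apart. Roots stood 1 per pot, but the plant behind each library is not labelled, and part of the spread that enters the p-values may be technical.

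Sweetpotato forms storage roots, in which starch is laid down in amyloplasts as the root thickens. The species is polyploid and highly heterozygous and is multiplied as clones, so each cultivar carries its own fixed set of alleles. A unigene of a de novo assembly stands for an assembled transcript, and gene copies or alleles that differ in sequence can become separate unigenes. A listing at 0 does not tell an absent gene, a silent gene and a diverged allele assembled under another ID apart. The files hold no unigene sequence, and whether a close copy of any of the 107 was listed in the high-starch cultivar was not tested. The files do not pair the IDs with gene names, and 0 of the 46840 IDs matched the reference gene table of assembly IBA_r1.0. Functions and tissue markers are therefore not given. By ID, 4 unigenes are named. They are the 2 with the largest increase and the 2 with the largest decrease from 30 to 100 days among those with at least 5 FPKM at the higher of these ages and no overlap between them.

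Of the 9 low-starch libraries, 2 stood apart. In 100-day replicate 3 the 10 most abundant unigenes took 40.5% of the FPKM and in 65-day replicate 3 they took 25.8%, against 5.5% to 12.5% in the other 7. None of the 107 was among those 10 in any low-starch library. Without these 2 libraries the rule would have chosen 118 unigenes.

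The 107 unigenes were part of a larger set listed at 0 in the high-starch cultivar. Of the 46840 unigenes, 5192 were listed at 0 in all 9 high-starch libraries, and 3030 of these were at 0 in all 18. A level of at least 1 FPKM was reached in exactly 1 low-starch library by 721 of the 5192, and in 2 libraries by 219. The number fell to 54 for 7 libraries, then stood at 70 for 8 libraries and 107 for all 9. At the limit itself, the 3 lowest values that passed were 1.01 FPKM each, and the 3 unigenes nearest below it had 0.98 FPKM in their lowest library. Another 63 unigenes had at least 1 FPKM in all 9 low-starch libraries and a value above 0 in a single high-starch library. That value was 0.06 FPKM at the lowest, 0.23 FPKM at the median and 1.45 FPKM at the highest. The opposite listing, at least 1 FPKM in all 9 high-starch and 0 in all 9 low-starch libraries, held 190 unigenes, or 0.406% of all.

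**Figure D1:**
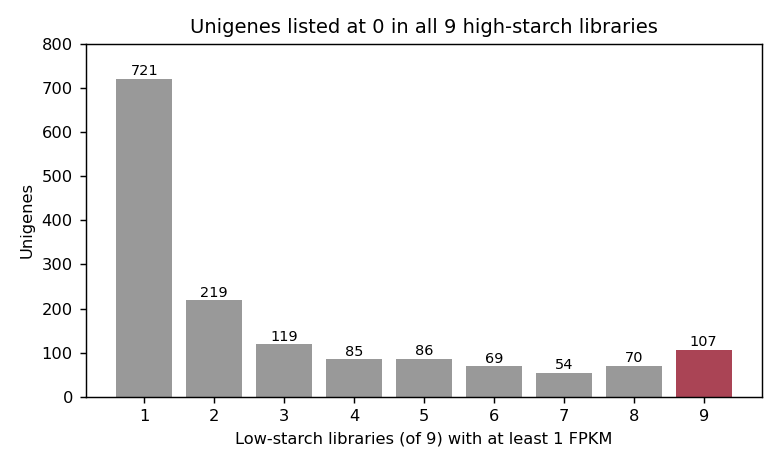
Number of unigenes (vertical axis) listed at 0 in all 9 high-starch libraries, by the number of low-starch libraries in which they reached at least 1 FPKM (horizontal axis). The counts run from 721 unigenes in 1 library down to 54 in 7 libraries and then up to the 107 unigenes described here (red bar); the 3662 unigenes that reached 1 FPKM in no low-starch library are not drawn.

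How far the listing holds in libraries that had no part in the choice was read by applying the rule to 12 libraries and looking at the other 6. With the libraries of replicate 1 left out, the rule chose 170 unigenes. Of these, 134 (78.8%) had at least 1 FPKM in all 3 low-starch libraries left out, and 139 (81.8%) were at 0 in all 3 high-starch libraries left out. With replicate 2 left out it chose 161, of which 123 (76.4%) reached 1 FPKM and 142 (88.2%) were at 0, and with replicate 3 left out it chose 155, of which 131 (84.5%) and 127 (81.9%) did so. Among all unigenes that met the low-starch limit in the 6 low-starch libraries used, 1.21% to 1.38% were at 0 in the high-starch libraries of the replicate left out. The chosen ones were already at 0 in the 6 high-starch libraries used, while these unigenes had no such limit. The gap between the shares at 0 thus follows at least in part from the choice and is no separate result. Of the same unigenes, 91.6% to 96.1% reached 1 FPKM in the low-starch libraries left out, a larger share than of the chosen ones. Both sides of the rule held in 62.9%, 66.5% and 69.0% of those chosen without replicates 1, 2 and 3. With 30, 65 and 100 days left out, 85.4%, 82.4% and 84.9% of the chosen unigenes were at 0 in the 3 high-starch libraries of that age. In the 3 low-starch libraries of that age 71.9%, 89.2% and 81.8% reached 1 FPKM, against 90.8%, 96.2% and 96.1% of all unigenes at the same low-starch limit. Both sides held in 60.1%, 72.3% and 67.3%. Those that held on both sides were the same 107 unigenes in every case, by replicate and by age. A unigene that passes in the libraries used and in those left out meets the full rule. These shares are therefore not separate results. Where a chosen unigene was above 0 in a high-starch library left out, its median value was 0.18 to 0.30 FPKM. The highest was 5.37 FPKM, in a library of replicate 2.

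The reads that a zero in the high-starch cultivar stands against could be estimated for some of the 107. Low values of a unigene are whole multiples of the FPKM of 1 read, and these steps give the relative value of 1 read in each library. On a log2 scale, set to 0 in the library with the smallest value, it was 1.13 ± 0.40 in the low-starch and 0.50 ± 0.38 in the high-starch libraries (SD, n = 9 each). A given FPKM therefore stood for more reads in the high-starch libraries. This holds if each value is whole reads times 1 factor for its library and 1 factor for its unigene. For 48 of the 107 unigenes all 9 low-starch values were whole multiples of 1 step within rounding. These 48 had 50 to 465 reads in the 9 low-starch libraries together, with a median of 158.5. At their mean low-starch FPKM, the 9 high-starch libraries would together have held 77.9 to 759 reads of each, with a median of 251. All 9 high-starch values of all 48 were 0 by the rule that chose them, so these zeros are no separate result. The reads behind a single low-starch value were few in many cases: 37 of the 48 had 10 reads or fewer in their lowest low-starch library, and 16 had 3 or fewer. The 59 unigenes in which reads could not be resolved had a higher median level, 10.5 FPKM against 5.62 FPKM.

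**Figure D2:**
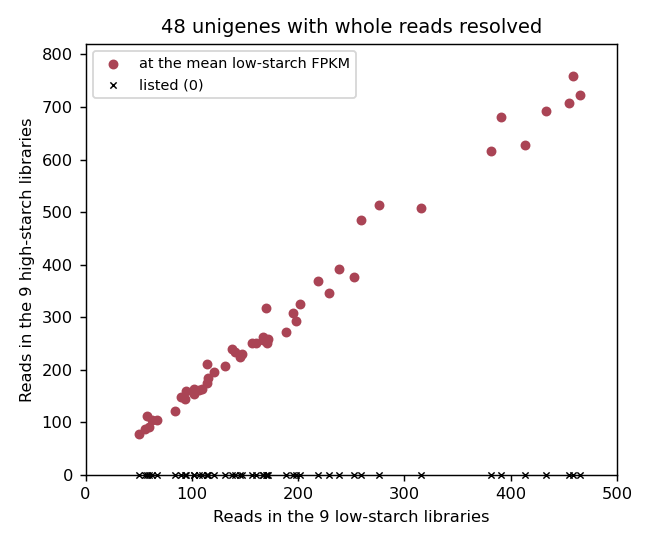
Reads in the 9 high-starch libraries together (vertical axis) against reads in the 9 low-starch libraries together (horizontal axis) for the 48 unigenes in which whole reads could be resolved. Red points are the reads that the mean low-starch FPKM would be worth in the high-starch libraries, from 77.9 to 759. Crosses are the listed values, all 0 by the rule.

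The unigenes were of low to middling abundance. Their mean over the 9 low-starch libraries was 2.12 FPKM at the lowest, 7.79 FPKM at the median and 49.1 FPKM at the highest. The other 15764 unigenes with at least 1 FPKM in all 9 low-starch libraries had a median of 18.3 FPKM. A mean of at least 20 FPKM was found in 16 of the 107 (15.0%), against 7372 of the 15764 (46.8%). Another 65 had 5 to 20 FPKM, and 26 had under 5 FPKM. The 190 unigenes of the opposite listing had a median of 4.81 FPKM and a highest mean of 29.8 FPKM in the high-starch cultivar. No test was made of these levels, since the rule used them.

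The most abundant of the 107, singled out after its values were seen, had 119, 31.4 and 38.6 FPKM at 30 days, 63.1, 27.8 and 28.4 FPKM at 65 days and 47.9, 56.8 and 29.1 FPKM at 100 days. By its mean it ranked 3536 among all unigenes in the low-starch cultivar. Its value in 30-day replicate 1 lay far above the rest, and the 3 ages overlapped. The next in abundance had 36.6, 31.5 and 31.8 FPKM at 30 days, 57.7, 53.4 and 37.9 FPKM at 65 days and 42.5, 64.6 and 28.7 FPKM at 100 days. Its lowest library, with 28.7 FPKM, was above the lowest library of each of the other 106.

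Together the 107 unigenes took a small share of the low-starch transcript pool at every age. Their summed FPKM was 0.125% ± 0.024 of the library sum at 30 days (SD, n = 3), 0.113% ± 0.013 at the age of 65 days and 0.097% ± 0.029 at the age of 100 days. Single libraries ran from 0.0662% in 100-day replicate 3 to 0.140% in 30-day replicate 3, and the ages overlapped. Without the 2 libraries that stood apart the share was 0.115% at 65 days and 0.113% at 100 days.

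The level of the whole set differed between libraries of 1 age. The median of the 107 was 10.2, 5.15 and 6.52 FPKM in the 3 libraries at 30 days. It was 9.36, 5.35 and 8.81 FPKM at 65 days and 6.25, 7.72 and 6.2 FPKM at 100 days. The mean of the 3 medians was 7.28, 7.84 and 6.72 FPKM at the 3 ages, a smaller range than that within 30 or 65 days. The medians of the 15764 other unigenes stayed between 16.2 and 17.7 FPKM in all 9 libraries. Replicate 2 was the lowest at both 30 and 65 days. In these 2 libraries 73 and 76 of the 107 unigenes lay below their own mean over the 9 libraries, which is 68.2% and 71.0%, against 51.5% and 49.6% of the others. Each of these 2 libraries was the highest of the 9 for 1 of the 107 unigenes (0.9%), while it was the highest for 13.6% and 16.3% of the others. Unigenes listed in the high-starch cultivar alone were also counted, and the cause of the low levels was not tested. Of the 203 unigenes so listed by the other 17 libraries, 13 (6.4%) were above 0 in each of these 2 libraries, within the 4.0% to 7.3% of all 9 low-starch libraries.

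The library with the highest median, 30-day replicate 1, was also the one in which 1 read was worth most, 2.0 on the relative log2 scale. It was followed by 30-day replicate 3 at 1.52, while the other 7 low-starch libraries lay between 0.71 and 1.20. In 30-day replicate 1 the 107 unigenes lay 0.46 (log2) above their own means on average, against 0.04 for the others, and 30 of the 107 had their highest value there. With the relative value of 1 read as a covariate in the age fit described next, the median log2 difference of the 107 was 0.37 for 65 against 30 days, -0.16 for 100 against 65 days and 0.27 for 100 against 30 days. Over all tested unigenes it was 0.06, -0.03 and 0.01 in that fit. The relative value of 1 read averaged 1.48 at 30 days, 0.87 at 65 days and 1.04 at 100 days. The covariate is thus partly tied to age, and the 2 cannot be fully told apart.

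**Figure D3:**
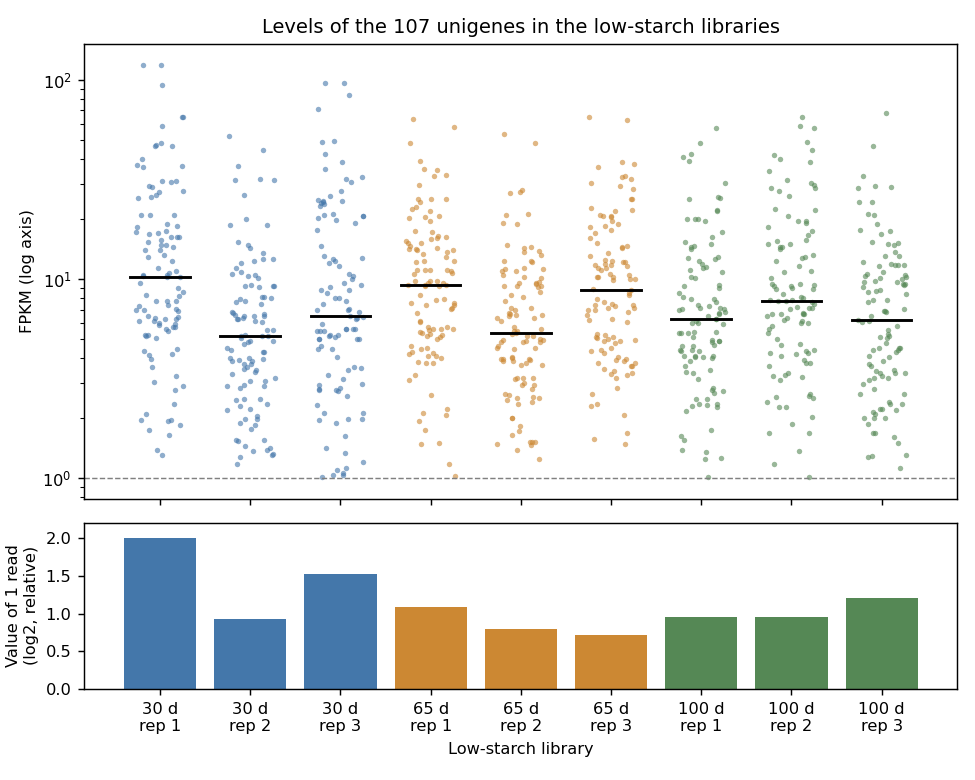
FPKM of each of the 107 unigenes (upper panel, log axis; bars mark the median, the dashed line the limit of 1 FPKM) and relative value of 1 read on a log2 scale (lower panel) in the 9 low-starch libraries, coloured by age. The medians run from 5.15 FPKM in 30-day replicate 2 to 10.2 FPKM in 30-day replicate 1, and libraries of 1 age differ as much as the ages do.

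The age comparison asks how the levels of these unigenes change as the low-starch root grows. The rule treats the 3 ages alike, so age could be tested, and the test ran on the 9 low-starch libraries alone, over the 26752 unigenes that reached 1 FPKM in 3 or more of these libraries. The 107 had to reach 1 FPKM in all 9, which 15871 unigenes did. Values over all tested unigenes, here and below, thus come from a less restricted set. That set can include unigenes near 0 at 1 age, which the 107 cannot. The limits were an adjusted p of 0.05 and a 2-fold difference. None of the 107 passed in any of the 3 pairs of ages with limma, and the share called over all tested unigenes was 0% in each direction as well. Of the 107, the smallest adjusted p was 0.205 for 65 against 30 days, 1 for 100 against 65 days and 0.279 for 100 against 30 days. At an unadjusted limma p under 0.05, 3 of the 107 were higher and 5 lower at 65 than at 30 days, where 6.85% and 6.75% of all tested unigenes were. At 100 against 65 days the numbers were 0 and 0, with 1.13% and 1.20% of all. At 100 against 30 days they were 1 and 4, with 4.38% and 5.04% of all. In a test of any difference among the ages, 0 passed by adjusted p, as did 0% of all tested unigenes, and 7 of the 107 had an unadjusted p under 0.05, against 9.33% of all. Library weights estimated by limma ran from 0.455 to 8.41. The largest was that of 100-day replicate 1, and the next was 1.91, so the weighted 100-day level rests mostly on 1 library. With these weights, 3 of the 107 passed higher and 5 lower at 100 against 30 days. Of all tested unigenes, 3.03% and 3.71% passed there. For any age 2 of the 107 passed, against 2.23% of all. These shares, per direction, lie near or below those of all tested unigenes except for the 5 lower, 4.67% against 3.71%. Without weights no change with age was detectable for the set at 3 libraries per age.

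Differences between age means were small for most of the 107. The highest age mean was less than 2-fold above the lowest in 73 (68.2%), against 70.5% of the 15764 others, and at least 4-fold above it in 7 (6.54%), against 677 of the others (4.30%). Of the 7, 4 were highest at 30 days, 1 at 65 days and 2 at 100 days, and of the 677, 485, 106 and 86 were. The median log2 difference of the 107 was -0.0038 for 65 against 30 days, -0.05 for 100 against 65 days and -0.09 for 100 against 30 days, on the scale of log2(FPKM + 1). Over all tested unigenes these medians were 0.12, -0.03 and 0.06. With the covariate given above, the medians of the 107 against 30 days changed sign, while that for 100 against 65 days did not. Medians also changed sign with single libraries. Without 30-day replicate 1 they were 0.15 for 65 against 30 days and 0.16 for 100 against 30 days. Without 65-day replicate 2 the median was 0.20 for 65 against 30 days, while that for 100 against 65 days kept its sign, at -0.29. Without 100-day replicate 3 the medians were 0.04 for 100 against 65 days and 0.02 for 100 against 30 days. No direction with age is therefore given for the set. The mean was highest at 30 days in 52 of the 107 (48.6%), at 65 days in 32 (29.9%) and at 100 days in 23 (21.5%), against 42.0%, 34.3% and 23.7% of the others. This order turned when single libraries were left out. Without 30-day replicate 1 the numbers were 26 (24.3%), 47 (43.9%) and 34 (31.8%), while the others then stood at 39.0%, 36.3% and 24.7%. Without 65-day replicate 2 they were 43 (40.2%), 47 (43.9%) and 17 (15.9%), while the others stood at 40.6%, 31.2% and 28.2%.

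**Figure D4:**
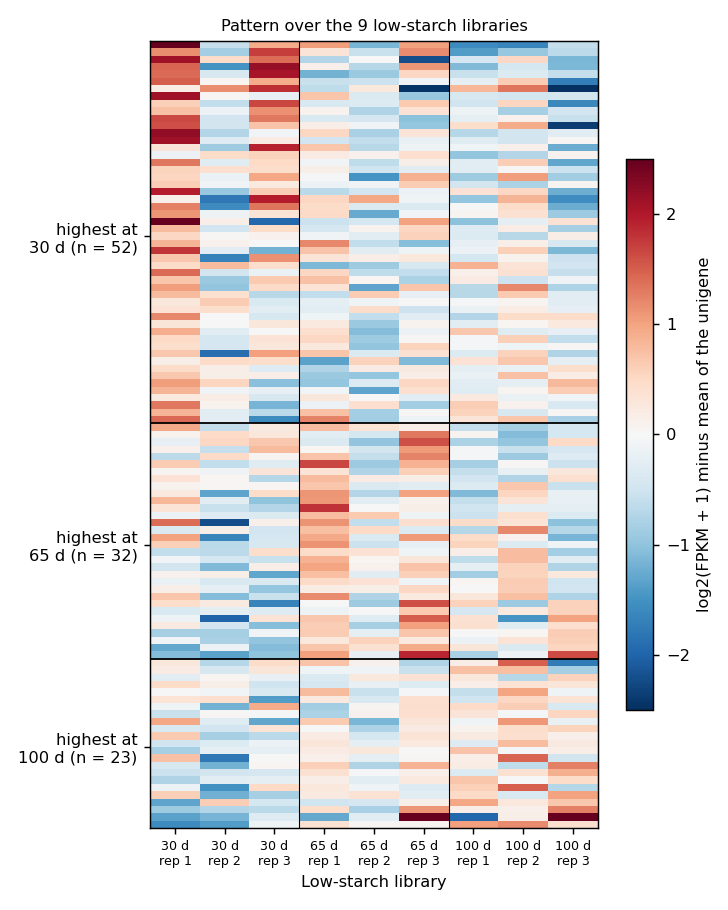
Level of each of the 107 unigenes (rows) in the 9 low-starch libraries (columns), as log2(FPKM + 1) minus the mean of the unigene, ordered by the age with the highest mean FPKM. Among the 52 unigenes highest at 30 days, 51 lie above their own mean in 30-day replicate 1 and 34 in replicate 3, but 21 in replicate 2. They were grouped by these same values, so high levels at 30 days follow in part from the grouping.

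Libraries of the 2 ages being compared seldom separated. At 65 against 30 days, all 3 libraries of the later age lay above all 3 of the earlier in 10 of the 107 (9.35%) and below them in 4 (3.74%), where 10% and 7.98% of all tested unigenes did. At 100 against 65 days this held for 3 (2.80%) and 5 (4.67%), against 2.69% and 3.90% of all. At 100 against 30 days it held for 7 (6.54%) and 4 (3.74%), against 7.95% and 6.66% of all.

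Among the 4 named unigenes, Iba_23146 had the largest increase. It had 1.64, 1.97 and 6.26 FPKM at 30 days, 9.16, 6.97 and 7.16 FPKM at 65 days and 15.0, 16.6 and 9.37 FPKM at 100 days. The 3 ages did not overlap, and each later age lay above the one before. Its mean was 13.7 ± 3.82 FPKM at 100 days and 3.29 ± 2.58 FPKM at 30 days (SD, n = 3 each). The log2 difference was 1.90 (SE 0.50), with a limma adjusted p of 0.279, and did not pass. With library weights, of which 100-day replicate 1 had the largest, it was 1.56, with a limma adjusted p of 0.0349.

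Iba_28581 had 1.74, 1.30 and 1.88 FPKM at 30 days, 10.7, 3.99 and 20.8 FPKM at 65 days and 2.31, 4.26 and 16.9 FPKM at 100 days. The 30-day libraries lay below all 6 later ones, and the later ones were spread widely, with replicate 3 highest at both ages. The log2 difference was 1.37 (SE 0.70, limma adjusted p = 0.578) at 100 against 30 days and 2.04 (SE 0.70, limma adjusted p = 0.264) at 65 against 30 days. These are the 2 libraries that stood apart, and without them the log2 difference was 0.67 at 100 against 30 days and 1.54 at 65 against 30 days. Without 100-day replicate 3 alone it was 0.67 at 100 against 30 days, and with library weights 0.51.

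Of the 2 named for a decrease, Iba_04310 had the larger one, with 94.1, 10.2 and 30.6 FPKM at 30 days, 33.1, 6.56 and 32.7 FPKM at 65 days and 4.59, 4.34 and 9.95 FPKM at 100 days. The 100-day libraries lay below the lowest 30-day library, 100-day replicate 3 only just. Replicate 2 was the lowest at each age. The log2 difference at 100 against 30 days was -2.23 (SE 0.77, limma adjusted p = 0.411), and with library weights it was -2.41 (limma adjusted p = 0.0207). Without 30-day replicate 1 it was -1.45 (limma adjusted p = 0.747), and with the relative value of 1 read as a covariate it was -0.97 (limma adjusted p = 0.793). At 65 against 30 days it was -0.65, and 1.09 with that covariate, 0.13 without 30-day replicate 1 and 0.07 without 65-day replicate 2.

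Iba_46383 had 31.0, 6.56 and 5.44 FPKM at 30 days, 11.03, 4.80 and 2.82 FPKM at 65 days and 4.65, 4.37 and 4.37 FPKM at 100 days. Apart from 30-day replicate 1, its values lay within a narrow band at 30 and 100 days. The log2 difference at 100 against 30 days was -1.09 (SE 0.65, limma adjusted p = 0.626). It was -0.35 without 30-day replicate 1, -0.20 with the relative value of 1 read as a covariate and -0.61 with library weights. Its reads could be resolved and numbered 170 over the 9 low-starch libraries, with 10 in the lowest, where its mean FPKM would be worth 318 reads in the 9 high-starch libraries.

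**Figure D5:**
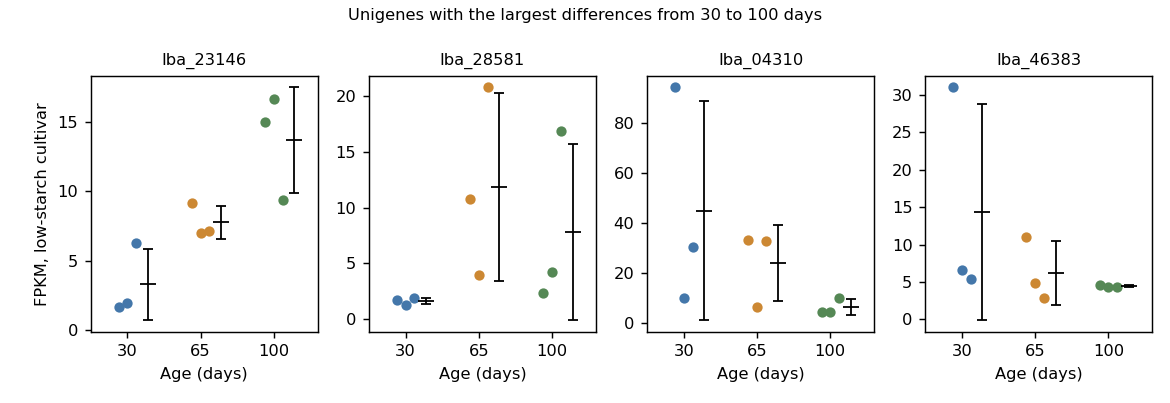
FPKM in the low-starch cultivar (vertical axes, from 0 or just below) at 30, 65 and 100 days for the 4 named unigenes, 2 with an increase and 2 with a decrease from 30 to 100 days. Points are libraries and bars are the mean and SD of 3; the 3 ages separate fully in Iba_23146, and single libraries of 30 days carry the high means of Iba_04310 and Iba_46383.

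The spread between libraries of an age was wider in the 107 unigenes than in others of like level, with no test made. The within-age SD of log2(FPKM + 1) had a median of 0.70, against 0.55 for the 15764 others. Among unigenes averaging 5 to 20 FPKM it was 0.72 for 65 of the 107 and 0.59 for 7090 of the others. It ranged from 0.25 to 1.997 over the 107. The highest library was at the median 5.95 times the lowest, against 4.09 times in the others. The steadiest unigene, singled out after its values were seen, had 14.8, 14.2 and 9.07 FPKM at 30 days, 15.2, 12.2 and 9.90 FPKM at 65 days and 14.7, 10.8 and 11.7 FPKM at 100 days.

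The unigene with the widest range, also singled out afterwards, had 2.09, 2.49 and 5.25 FPKM at 30 days, 2.23, 5.47 and 63.0 FPKM at 65 days and 1.01, 7.65 and 68.1 FPKM at 100 days. Both high values were in the 2 libraries that stood apart, and the other 7 values did not exceed 7.65 FPKM. Against the mean of the other 2 libraries of their age, 7 of the 107 (6.54%) were at least 2-fold higher in both of these libraries and 3 (2.80%) at least 2-fold lower, on the log2(FPKM + 1) scale. Among the others these shares were 2.76% and 4.73%. Correlations between the 107 unigenes over the 9 libraries were weak, with a mean r of 0.117 over all pairs, against 0.003 for the others. These pairs share libraries, depth and scaling, and the values describe the profiles only.

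The IDs of the 107 were spread over the whole list, and each of 10 equal stretches of it held 6 to 14 of them. A directly adjacent ID belonged to another of the 107 in 6 cases (5.61%), in 3 pairs, where 0.455% of all unigenes had one of the 107 beside them. Over the 9 low-starch libraries the log2 levels of these pairs correlated at 0.33, -0.07 and 0.75. A directly adjacent ID belonged to the opposite listing in 4 cases (3.74%), against 0.807% of all unigenes. In these 4 pairs the low-starch unigene averaged 10.5 ± 7.51, 4.06 ± 2.08, 2.75 ± 1.75 and 8.34 ± 8.80 FPKM in the low-starch cultivar, and its neighbour averaged 4.54 ± 3.29, 3.83 ± 2.44, 6.5 ± 2.92 and 4.06 ± 1.34 FPKM in the high-starch cultivar (SD, n = 9 each). That each unigene of these pairs was at 0 in all 9 libraries of its neighbour's cultivar follows from the 2 listing rules. The last of these pairs is that of Iba_46383. Within 20 ID numbers the shares were 11.2% for another of the 107, against 8.49% of all unigenes, and 14.0% for the opposite listing, against 14.7% of all. Of 208 direct neighbours that were not among the 107, 58 (27.9%) differed at least 2-fold between the cultivars on the log2(FPKM + 1) scale, 23 higher in the low-starch and 35 higher in the high-starch cultivar, against 14.5% of all unigenes. How the ID numbers were given is not stated in the sources used here.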

How the data were processed

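The authors deposited 1 table of FPKM values for unigenes of a de novo assembly, with 1 column per library. Per the labels' protocols, Trizol-extracted, DNA-free RNA was made into TruSeq stranded mRNA libraries. The submitters' processing notes name edgeR. For assembly, alignment, counting and scaling, tools and settings are not given, and the absolute depth is unknown. FPKM sums ran from 731156 to 1471677 per library.

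FPKM are not counts, so age was tested with limma 3.58.1 (R 4.3.3, eBayes trend) on log2(FPKM + 1), which understates changes of low values. Only the 9 low-starch libraries were fitted, since the zeros of the others would add degrees of freedom with no spread. P-values were adjusted by Benjamini-Hochberg over all tested unigenes. The named unigenes have the largest differences from 30 to 100 days among those with at least 5 FPKM at the higher age and no overlap. The members, lists and tests were chosen with earlier results of these data known.

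The value of 1 read was fitted from ratios of low values, and 94.8% of library pairs lay within 0.05 (log2) of the fit. Whole reads were called resolved when all 9 values fitted 1 step within 0.005 FPKM of rounding and 0.001 of the value, with a tolerance window of at most 0.25 steps. Both steps were checked on simulated data. Alternatives covered pseudocounts, filters, scaling, weights, covariates and left-out libraries. Python 3.11.15, NumPy 2.4.6, pandas 2.3.3 and Matplotlib 3.10.9 were used.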

Additional observations from a re-analysis of the deposited data

Results flagged for a closer look

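For 7 measures over the 9 low-starch libraries (the share, median and sum of the 107 unigenes and the FPKM of the 4 named ones), the gap between the extreme library and its neighbour was divided by the range and set against the 95% limit of Dixon's test. In 2 cases 1 library lay far from the others. Iba_04310 had 94.1 FPKM in low-starch 30 d replicate 1, with a gap of 0.679 of the range, and Iba_46383 had 31.0 FPKM in the same library, with a gap of 0.709. Chance sets a library apart in about 1 in 20 cases when a measure is not chosen by its values. Both unigenes were named for their decrease from 30 to 100 days, and the 9 libraries span 3 ages. That rate therefore does not hold for them. Low-starch 30 d replicate 1 is the library in which 1 read was worth most. With the relative value of 1 read as a covariate, the log2 difference at 100 against 30 days was -0.97 for Iba_04310 and -0.20 for Iba_46383, against -2.23 and -1.09 without it. Leaving that library out, with no covariate, gave -1.45 and -0.35. The covariate is largest in that same library and partly tied to age, so these cannot be told apart. The cause of the 2 high values was not tested.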

How the results depend on the processing

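None of the 107 unigenes passed an age comparison under any alternative except array weights, with which 8 (3 higher, 5 lower) passed at 100 against 30 days, where 3.03% and 3.71% of all tested unigenes did, and 2 in the test of any age. With array weights Iba_23146 (log2 difference 1.56, adjusted p = 0.0349) and Iba_04310 (-2.41, adjusted p = 0.0207) passed, within ranges of 0.0349 to 0.775 and 0.0207 to 0.821 over all alternatives. Over all unigenes, array weights called 38 at 65 against 30 days, 1802 at 100 against 30 days and 597 at any age. The weights ran from 0.455 to 8.41, with the largest in low-starch 100 d replicate 1 and the next at 1.91. Median-of-ratios scaling called 3 at 65 against 30 days, quantile normalization 3, 1 at 100 against 30 days and 1 at any age. The value of 1 read as a covariate called 3, 1 at 100 against 65 days and 1 at any age. All 18 libraries in 6 groups called 11 at 100 against 30 days and 3 at any age. Leaving out single libraries gave 0 to 49 at 65 against 30 days, 0 at 100 against 65, 0 to 152 at 100 against 30 and 0 to 67 at any age, the highest each without low-starch 30 d replicate 2. Leaving out both libraries with few dominant unigenes, chosen after seeing the data, called 1 at 100 against 30 days.

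A replicate block called 2 unigenes at 100 against 30 days and 1 at any age, none of the 107. Same-numbered libraries deviated together (r over 0.1) in 3 of 9 pairs, with r from -0.24 to 0.40. Differently numbered libraries did so in 3 of 18 pairs, with r from -0.40 to 0.33. The numbers were not taken as pairs in the main fit, and these few values do not decide whether they should be.

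The listing held 64 unigenes at a limit of 2 FPKM and 23 at 5 FPKM; the opposite listing held 325 at 0.5, 81 at 2 and 20 at 5 FPKM. Without single libraries they numbered 107 to 120 and 192 to 235. The share at 65 days was 0.135% without the 10 most abundant unigenes. The number highest at 30 days ran from 26 to 55 without single libraries. The within-age SD was 0.81 with a pseudocount of 0.1 and 0.64 to 0.73 without single libraries. The causes were not tested. The 3 libraries per age and the unknown depth limit what could be detected.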
